A study of Homo sapiens with 24 samples.

Results

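The fibroblast growth factor (FGF) pathway was followed through 35 genes, taken by symbol from the 61551 genes counted in the series and not by any measured value. They comprise 17 secreted ligands, 4 FGF homologous factors that stay inside the cell (FGF11 to FGF14), 4 receptors (FGFR1 to FGFR4) and 10 feedback or response genes. RNA was sequenced from H9 cells, an established human embryonic stem cell (hESC) line, in 4 genotypes that all share this parent line. HAR123 is a noncoding enhancer that lies inside SMG6 on chromosome 17 and changed rapidly in the human lineage. In hHAR123 cells the human element was left unedited, in HAR123-KO cells CRISPR had deleted it from both alleles, and in cHAR123 and mHAR123 cells it had been exchanged for the chimpanzee or the mouse ortholog. Each genotype was sampled as undifferentiated ESCs (day 0) and as neuroectoderm, the early neural precursor layer, after 5 days in 500 ng/ml Noggin and 10 µM SB431542, which block BMP and activin/TGFβ signalling. By the paper's methods, ESCs were kept in StemFlex medium and neuroectoderm was made in KnockOut DMEM with KnockOut serum replacement. Medium therefore changed with stage, and their parts in the stage differences below cannot be told apart. There were 3 libraries for each genotype and stage, 24 in all.

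Each genotype was represented by a pair of clones, and the clone behind each library is not given in the sources used here. The labels do not say that libraries came from separate cultures, so the p-values below measure only the spread between libraries, part of which may be technical. HAR123 lies in an intron of SMG6, and whether its deletion removes a counted exon was not checked. The paper reports low HIC1 in neuroectoderm of the edited genotypes. The genotype labels were not checked here against HIC1 or any other transcript. In neuroectoderm, the columns labelled cHAR123 and mHAR123 match by their values the opposite names in the gene lists the study distributed. They are named here as the columns name them, as "the libraries labelled cHAR123" and "the libraries labelled mHAR123", and which assignment is right was not tested. Library totals ran from 23334732 to 35198684 counts in ESCs and from 21022748 to 25978892 in neuroectoderm. The stage labels matched their markers. A list of 7 pluripotency genes summed to 2534 to 2688 CPM (counts scaled to the total of each library) in the 12 ESC libraries and to 315 to 690.2 CPM in the 12 neuroectoderm libraries. A list of 6 neuroectoderm genes summed to 41.2 to 55.5 CPM in ESCs and to 788 to 1718 CPM in neuroectoderm.

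FGF ligands bind receptor tyrosine kinases at the cell surface, which signal through RAS and the kinase ERK. ERK signalling switches on the transcription factors ETV4 and ETV5, which carry the signal onward. The pathway is restrained by the ERK phosphatase DUSP6, the Sprouty and SPRED inhibitors and the membrane protein IL17RD, whereas the membrane protein FLRT3 can promote it. In hESCs FGF2 is a self-renewal factor, and in the early neural plate FGF8 is a signal of the anterior border and of the boundary between midbrain and hindbrain. The homologous factors are not secreted and are best known as partners of sodium channels.

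The start sites of 4 feedback genes are shown. Of these, 3 lie in genes with lower levels in neuroectoderm without HAR123, DUSP6 by less than 2-fold. The FLRT3 site lies in the gene that moved the other way. SPRY1, SPRY4, SPRED1 and IL17RD were lower too and had windows that are not shown, so the genes shown do not represent the set. Each line gives the 250 bases before a start site, 5′ to 3′ on the strand of the gene, from RefSeq on GRCh38.p14. Capitals mark CGGAA, or TTCCG, the same letters on the other strand. CGGAA is the core GGAA that ETS factors such as ETV4 and ETV5 recognise, together with a C before it.
SPRY2, chr13:80341127-80341376, minus strand: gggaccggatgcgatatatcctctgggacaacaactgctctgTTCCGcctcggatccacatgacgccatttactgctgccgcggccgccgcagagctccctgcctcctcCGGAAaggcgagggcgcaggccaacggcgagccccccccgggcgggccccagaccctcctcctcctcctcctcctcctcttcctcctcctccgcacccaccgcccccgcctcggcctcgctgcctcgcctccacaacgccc
SPRED2, chr2:65432600-65432849, minus strand: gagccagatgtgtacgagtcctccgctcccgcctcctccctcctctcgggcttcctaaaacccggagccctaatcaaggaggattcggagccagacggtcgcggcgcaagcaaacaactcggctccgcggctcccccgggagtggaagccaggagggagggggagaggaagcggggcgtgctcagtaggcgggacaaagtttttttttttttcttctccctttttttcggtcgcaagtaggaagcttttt
DUSP6, chr12:89352502-89352751, minus strand: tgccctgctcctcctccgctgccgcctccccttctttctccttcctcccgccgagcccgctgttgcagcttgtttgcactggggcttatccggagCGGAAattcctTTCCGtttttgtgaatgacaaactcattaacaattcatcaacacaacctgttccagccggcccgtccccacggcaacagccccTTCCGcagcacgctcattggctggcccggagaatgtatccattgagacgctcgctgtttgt
FLRT3, chr20:14337613-14337862, minus strand: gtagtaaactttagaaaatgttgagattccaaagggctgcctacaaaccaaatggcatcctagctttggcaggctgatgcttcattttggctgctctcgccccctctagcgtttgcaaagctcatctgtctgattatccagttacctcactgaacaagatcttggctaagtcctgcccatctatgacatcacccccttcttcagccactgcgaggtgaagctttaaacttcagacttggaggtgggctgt
The SPRED2 window ends 38 bases and the FLRT3 window 2 bases inside the gene as counted. The letters occurred 2 times in the SPRY2 window and 3 times in the DUSP6 window. They were not found in the SPRED2 and FLRT3 windows. The shorter GGAA or TTCC, which is not marked, does occur in both. Of all 35116 windows of this length in the table, 30.3% held CGGAA on either strand. Of the 46 windows that belong to 25 of the FGF genes, 4 did, or 8.70%. These are matches of letters and not tested sites. ETV4, ETV5, FGF4, FGF8, FGF9, FGF16, FGF17, FGF19, FGF20 and FGFR1 had no entry in the table.

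In unedited ESCs 3 ERK response genes had the highest levels of the 35 genes per length. In TPM, which also allows for transcript length (mean ± SD, n = 3), DUSP6 stood at 104 ± 2.89 TPM, SPRY4 at 81.4 ± 2.22 TPM and ETV4 at 61.0 ± 1.30 TPM. FLRT3 was far below them at 0.146 ± 0.00630 TPM. The receptors followed in the order FGFR1 (53.8 ± 1.14 TPM), FGFR4 (32.2 ± 0.325 TPM), FGFR2 (13.0 ± 0.781 TPM) and FGFR3 (6.84 ± 0.506 TPM), with no overlap between neighbours in that order. FGF2 was the highest ligand at 24.7 ± 1.38 TPM, and FGF19, a ligand that needs a Klotho co-receptor, came next at 10.6 ± 0.282 TPM. In unedited neuroectoderm the order was different. FGFR1 (62.1 ± 0.333 TPM) and FGFR2 (32.0 ± 1.32 TPM) headed the list, FLRT3 came next at 23.4 ± 1.41 TPM, and DUSP6 was at 2.22 ± 0.266 TPM. In each of these groups 19 of the 35 genes had a mean over 1 TPM. FGF3 and FGF6 never exceeded 3 counts in a library.

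A gene passed the test when its adjusted p was under 0.01 and its change exceeded 2-fold. The share of all genes whose libraries did not overlap between groups was not counted. Lack of overlap, where given below, therefore describes the single gene only. Over the differentiation of unedited cells, 15 of the 26 FGF genes tested passed, 4 higher and 11 lower in neuroectoderm, against 45.9% of all genes tested (24.6% higher and 21.2% lower). Among them, FGF4, FGF16 and FGF19 were too low to test between genotypes in neuroectoderm, and FGF9 and FGF14 in ESCs. Each entered through the stage where it was high, so these calls are no support for the count. The median log2 fold change of the tested FGF genes was -0.73 and that of all genes tested 0.05. The largest fall was that of DUSP6, from 220.5, 222 and 222 CPM to 4.14, 5.37 and 4.23 CPM (log2 fold change -5.88 ± 0.06 SE, adjusted p = 1.28e-44). SPRY4 fell from 298, 289 and 298 CPM to 12.6, 14.0 and 14.1 CPM (-4.73 ± 0.05 SE, adjusted p = 9.43e-45). ETV4 fell from 119, 119.9 and 117 CPM to 6.04, 5.99 and 6.70 CPM (-4.53 ± 0.06 SE, adjusted p = 4.23e-41). The levels of these 3 ERK response genes were separated by stage in every library, whereas the related SPRY1 (-0.52) and SPRED2 (0.24) differed by less than 2-fold. SPRY2 (-1.40), ETV5 (-1.17) and IL17RD (-2.40) also fell. FLRT3 rose from 0.410, 0.422 and 0.426 CPM to 66.9, 64.3 and 63.2 CPM (6.96 ± 0.10 SE, adjusted p = 7.75e-39).

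Among the ligands, FGF19 fell from 11.2, 10.6 and 10.2 CPM to 0.333, 0.165 and 0.299 CPM (-5.61 ± 0.19 SE, adjusted p = 9.66e-27). FGF16 had 31, 59 and 40 counts in ESCs and 2, 1 and 2 in neuroectoderm (-4.36 ± 0.45 SE, adjusted p = 2.84e-11), so the size of its fall rests on very few counts. FGF4, the ligand of the early embryo, had 18, 33 and 20 counts in ESCs and 2, 6 and 2 counts in neuroectoderm (-2.54 ± 0.45 SE, adjusted p = 2.88e-06). For each of these 3 ligands the counts did not overlap between the stages, and the share of all genes without overlap was not counted. Higher in neuroectoderm were FGF9, from 0.189, 0.0602 and 0.171 CPM to 3.90, 3.26 and 3.37 CPM (4.31 ± 0.29 SE, adjusted p = 1.27e-16), and FGF8, from 0.821, 0.662 and 0.938 CPM to 2.38, 2.19 and 2.35 CPM (1.21 ± 0.22 SE, adjusted p = 3.51e-06). Of the homologous factors, FGF14 rose (3.28) and FGF13 fell (-1.87). Of the receptors, FGFR4 fell from 88.5, 85.1 and 82.8 CPM to 8.70, 8.31 and 10.5 CPM (-3.51 ± 0.06 SE, adjusted p = 3.94e-36), and the FGFR2 value was 0.96, just under 2-fold. The TMM scaling placed the neuroectoderm libraries 0.29 lower, on the log2 scale, than plain CPM did. FGFR1 and FGFR3 change sign between these scales: FGFR1 was at 505 to 516 CPM in ESCs and 552 to 585 CPM in neuroectoderm, yet its fitted log2 fold change was -0.14, and that of FGFR3 was -0.11.

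**Figure D1:**
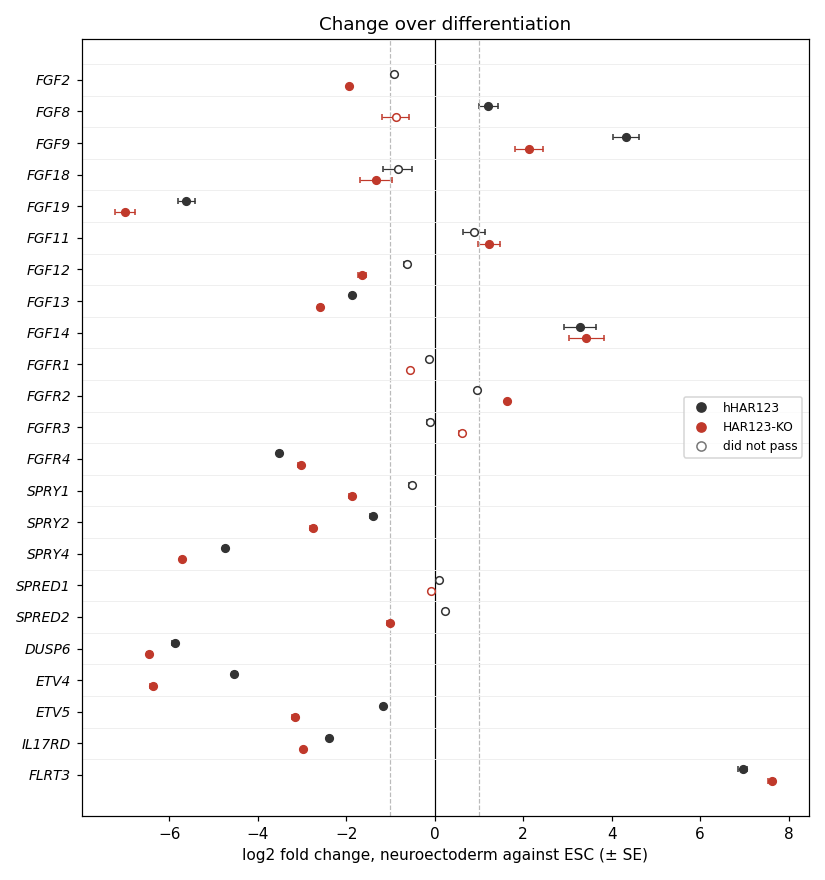
Log2 fold change of 23 FGF genes from ESC to neuroectoderm (x axis, ± SE of the fit) in hHAR123 (dark) and HAR123-KO (red), 3 libraries per stage. Filled points passed the test, dashed lines mark 2-fold, and members with few counts are not drawn. FLRT3 lies at 6.96 and 7.62, DUSP6 at -5.88 and -6.45, and FGF8 at 1.21 and -0.89.

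The comparison of HAR123-KO with hHAR123 neuroectoderm asked which genes respond to loss of the element at the stage when neural precursors form. Of the 24 FGF genes tested, 10 passed, 2 higher and 8 lower without HAR123, against 9.45% of all genes tested (4.92% higher and 4.52% lower). The median log2 fold change was -0.53 over the tested FGF genes and 0.0009 over all genes. A further 10 had an adjusted p under 0.01 with less than 2-fold, so that 20 of 24 lay under this threshold against 44.1% of all genes. They were 5 higher and 15 lower, against 24.2% and 19.9% of all genes. In bulk RNA, fewer cells of a type and less RNA per cell cannot be told apart.

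The feedback and response genes held most of the calls, 5 lower and 1 higher of 10. ETV5 (chr3:186046314-186110318, minus strand) was at 27.8, 27.2 and 29.1 CPM in hHAR123 and 5.77, 5.66 and 5.27 CPM in HAR123-KO. It was 4.86-fold down-regulated (log2 fold change -2.28 ± 0.08 SE, adjusted p = 1.53e-29). The related ETS factor ETV4 (chr17:43527844-43579620, minus strand) was at 6.04, 5.99 and 6.70 CPM in hHAR123 and 1.16, 1.498 and 2.08 CPM in HAR123-KO (-1.92 ± 0.16 SE, adjusted p = 7.32e-15). Both factors were lower in all 3 HAR123-KO libraries than in any hHAR123 library. ETV4 overlaps DHX8 on the opposite strand, and whether counting used strand is not known. DHX8 itself differed by 0.18 ± 0.04, in the other direction.

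SPRY1 (chr4:123396795-123403760, plus strand), an inhibitor of receptor tyrosine kinase signalling, was at 33.7, 30.9 and 29.3 CPM in hHAR123 and 10.2, 9.90 and 12.4 CPM in HAR123-KO (-1.47 ± 0.08 SE, adjusted p = 5.55e-23). SPRY2 (chr13:80335976-80341126, minus strand) was at 18.9, 20.2 and 18.8 CPM in hHAR123 and 6.89, 7.32 and 5.64 CPM in HAR123-KO (-1.495 ± 0.09 SE, adjusted p = 2.57e-20). SPRED2 (chr2:65310851-65432637, minus strand), which holds back RAF activation, was at 47.1, 43.97 and 46.5 CPM in hHAR123 and 16.0, 19.4 and 19.0 CPM in HAR123-KO (-1.29 ± 0.06 SE, adjusted p = 3.62e-24). Each of these inhibitors was expressed at less than the lowest hHAR123 level in every HAR123-KO library. The remaining negative regulators lay under the adjusted p threshold with less than 2-fold: SPRY4 at -0.93, DUSP6 at -0.90, IL17RD at -0.46 and SPRED1 at -0.25. In CPM, SPRY4 was at 12.6 to 14.1 CPM in hHAR123 and 6.09 to 7.91 CPM in HAR123-KO, and DUSP6 at 4.14 to 5.37 CPM and 1.87 to 2.63 CPM.

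FLRT3 (chr20:14322985-14337614, minus strand) was the exception among these genes. It was at 66.9, 64.3 and 63.2 CPM in hHAR123 and 146, 159.9 and 155 CPM in HAR123-KO and was up-regulated 2.46-fold (1.30 ± 0.04 SE, adjusted p = 7.12e-33). The gene lies inside MACROD2 on the opposite strand, and the MACROD2 difference was -1.35 ± 0.08.

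**Figure D2:**
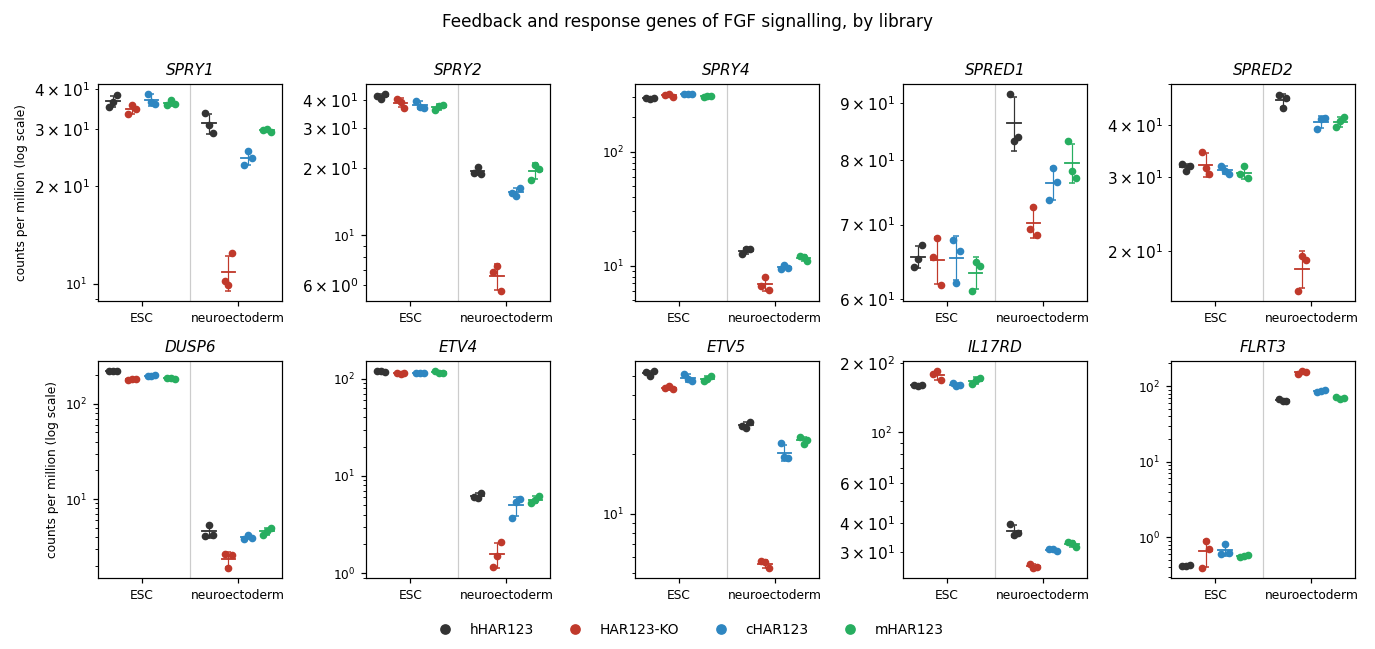
CPM (log axis) of the 10 feedback and response genes in each of the 24 libraries, by stage and genotype; points are libraries, horizontal bars are group means and vertical bars are ± SD (n = 3). In neuroectoderm the HAR123-KO points of ETV5 (5.27 to 5.77 CPM) lie under those of the other genotypes, and those of FLRT3 (146 to 159.9 CPM) lie over them.

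Of the 17 secreted ligands, 6 had enough counts to test, and 3 passed. FGF8 (chr10:101770109-101780371, minus strand) was at 2.38, 2.19 and 2.35 CPM in hHAR123 and 0.603, 0.374 and 0.736 CPM in HAR123-KO, or 50, 53 and 55 against 14, 9 and 18 counts (-1.95 ± 0.26 SE, adjusted p = 5.76e-09). With 9 counts in HAR123-KO replicate 2, FGF8 passed the filter on low counts only through the hHAR123 libraries. Its call is therefore no support for the counts of genes that passed. FGF9 (chr13:21671073-21704498, plus strand) was at 3.90, 3.26 and 3.37 CPM in hHAR123 and 1.51, 1.41 and 2.04 CPM in HAR123-KO (-1.02 ± 0.18 SE, adjusted p = 3.33e-06). Its change sat at the 2-fold limit, and it fell short of it without HAR123-KO replicate 1 (-0.96), HAR123-KO replicate 2 (-0.92) or hHAR123 replicate 1 (-0.96). FGF17, a relative of FGF8, passed the filter on low counts through the HAR123-KO libraries alone, so its call is no support for the counts of genes that passed. It had 3, 1 and 5 counts in hHAR123 and 10, 15 and 18 in HAR123-KO. That is 9 against 43 counts, a ratio per library total of 4.57 with a 95% exact interval of 2.20 to 10.7 that covers counting error only (log2 fold change 2.20 ± 0.50 SE, adjusted p = 0.000204). FGF2, the most expressed ligand, was at 62.7, 58.4 and 59.0 CPM in hHAR123 and 37.0, 36.1 and 37.4 CPM in HAR123-KO, a log2 difference of -0.65 with adjusted p = 7.81e-17 and less than 2-fold. It overlaps NUDT6 on the opposite strand, which differed by -0.27 ± 0.09.

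FGF12, the homologous factor with the largest difference, fell from 13.8, 13.7 and 11.8 CPM to 6.16, 6.20 and 5.80 CPM (-1.06 ± 0.10 SE, adjusted p = 1.44e-13). FGF13 lay under the adjusted p threshold at -0.35, while FGF14 (-0.24) and FGF11 (0.28) did not. FGF11 is the FGF gene nearest to HAR123, on the same chromosome and 5.13 Mb from the end of SMG6.

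The receptors did not share a direction, and none passed the 2-fold limit. FGFR1 was at 552, 585 and 572 CPM in hHAR123 and 374, 365 and 355 CPM in HAR123-KO (-0.59 ± 0.03 SE, adjusted p = 2.63e-23). FGFR2 was at 322, 318 and 321 CPM in hHAR123 and 532, 526 and 527 CPM in HAR123-KO (0.77 ± 0.03 SE, adjusted p = 3.71e-29). FGFR3 was at 19.3, 20.3 and 22.5 CPM in hHAR123 and 36.6, 34.0 and 35.1 CPM in HAR123-KO (0.82 ± 0.06 SE, adjusted p = 2.54e-16). FGFR4 differed by 0.57. FGFR1 was thus lower and the other 3 receptors higher. In TPM, FGFR4 overlapped between the genotypes, with a highest hHAR123 level of 4.10 and a lowest HAR123-KO level of 3.93 TPM.

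**Figure D3:**
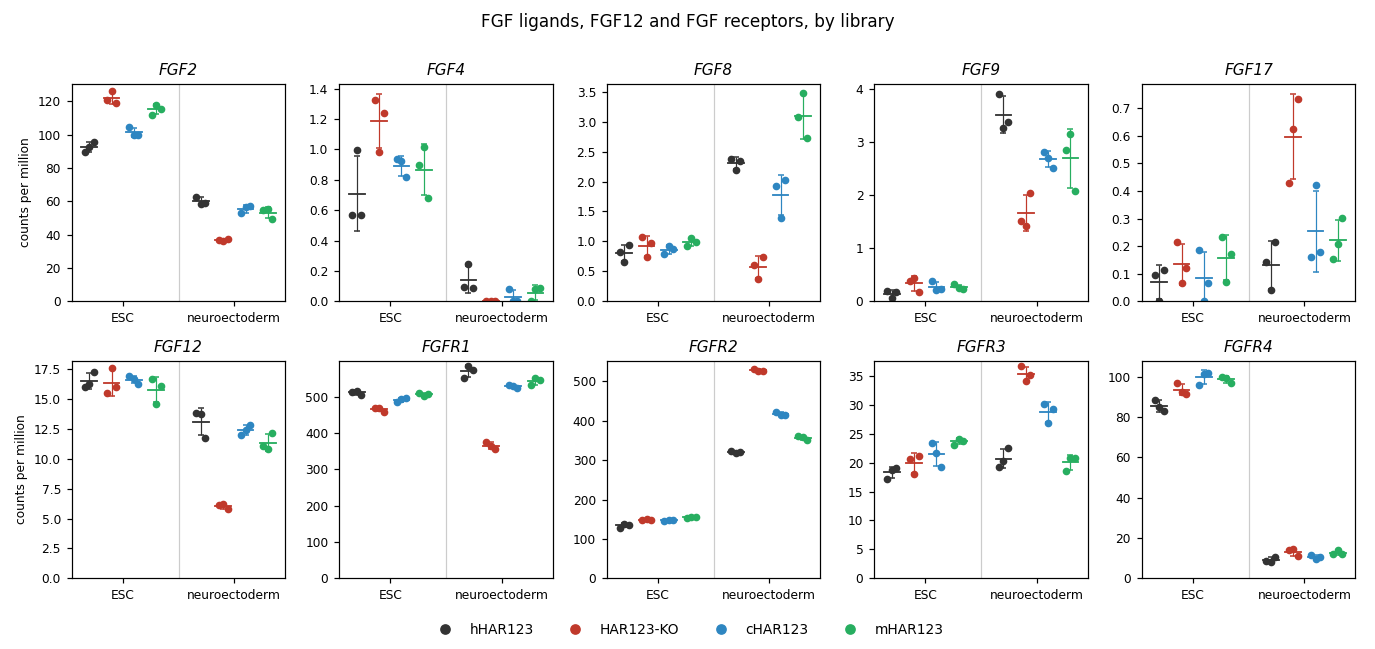
CPM (linear axis from 0) of 5 ligands, FGF12 and the 4 receptors in each of the 24 libraries; points are libraries, horizontal bars group means and vertical bars ± SD (n = 3). In neuroectoderm FGF8 lies at 0.374 to 0.736 CPM in HAR123-KO and 2.19 to 2.38 CPM in hHAR123, and FGFR2 at 526 to 532 CPM and 318 to 322 CPM.

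Other genes of the pathway were taken from lists of related genes. Of 14 co-receptors and FGF binding proteins tested (of 18 listed), 2 were higher and 3 lower in HAR123-KO neuroectoderm. The lower ones were FGFRL1, a receptor without a kinase domain (-2.15 ± 0.06), ANOS1, an FGF receptor modulator (-1.68 ± 0.07), and the heparan sulfate proteoglycan GPC3 (-1.93 ± 0.03). The carrier FGFBP3 (1.28 ± 0.07) and the proteoglycan HSPG2 (1.39 ± 0.03) were higher. Of 21 signal transduction genes from FRS2 to MAPK3, 1 passed, the adaptor SHC1 (1.46 ± 0.04). Of 12 other ERK response genes, 4 were lower and 0 higher by edgeR: SPRED3 (-1.25 ± 0.11), EGR1 (-1.59 ± 0.05), FOS (-1.52 ± 0.09) and FOSL1 (-2.57 ± 0.42). FOSL1 had 26, 35 and 23 counts in hHAR123 and 0, 9 and 5 in HAR123-KO. It passed the filter on low counts only through the hHAR123 libraries, so its call is no support for the count. The numbers of genes that passed in these lists stand beside the 9.45% of all genes.

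Cell type markers moved with these differences. Neural crest markers, all 8 of 8 higher, summed to 119 to 126 CPM in hHAR123 neuroectoderm and 1758 to 1769 CPM in HAR123-KO, with no marker at 0. Forebrain markers, 6 of 7 tested lower, summed to 318 to 322 CPM and 55.6 to 57.9 CPM, with SIX6 at no more than 3 counts in both genotypes. Neuroectoderm markers, 3 of 6 lower, summed to 1681 to 1696 CPM and 788 to 809 CPM. Midbrain and hindbrain markers, 4 of 5 tested higher and 1 lower, summed to 23.9 to 25.6 CPM and 234 to 236 CPM. WNT1 made up most of the HAR123-KO sum, at 137, 137 and 137 CPM, followed by PAX2 at 64.2, 64.6 and 65.3 CPM. PAX8 was the lower marker of this list, and EN2, PAX5 and GBX2 were too low to test. Pluripotency markers, 1 higher and 1 lower of 7, summed to 664 to 690.2 CPM and 315 to 318 CPM. The lower one was SOX2, which is also a neural gene, at 549, 549 and 528 CPM in hHAR123 and 159, 157 and 158 CPM in HAR123-KO, and it made up most of the sum in hHAR123. The higher one was ZFP42, at 5.04 to 5.85 CPM in hHAR123 and 22.8 to 25.3 CPM in HAR123-KO. Surface ectoderm and placode markers (2 higher and 1 lower of 4 tested) summed to 9.23 to 9.42 CPM and 8.83 to 9.07 CPM, and mesoderm markers (1 higher of 2 tested) to 3.33 to 3.71 CPM and 3.31 to 4.12 CPM. The endoderm markers, at 0.0854 to 0.413 CPM and 0 to 0.215 CPM, were too low to test. KRT5, KRT14, TBXT, MIXL1, HAND1, SOX17 and FOXA2 had at most 3 counts in each of these libraries, as had EN2 in hHAR123 and GBX2 in HAR123-KO. The part of these marker differences in the FGF gene values was not tested.

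With a nonhuman ortholog in place of the human element, no FGF gene passed against hHAR123 in neuroectoderm. For the libraries labelled cHAR123, edgeR and DESeq2 each called 0, and 15 of the 23 genes tested had an unadjusted p under 0.05, against 29% of all genes. For the libraries labelled mHAR123, both tools again called 0, and 11 of 22 had an unadjusted p under 0.05, against 33.8% of all genes. The share of all genes that passed both limits was 0.978% (0.522% higher and 0.456% lower) for the libraries labelled cHAR123 and 1.03% (0.603% and 0.429%) for those labelled mHAR123. Without the fold limit, 10 genes lay under the adjusted p threshold in the libraries labelled cHAR123, against 9.89% of all genes. They were 3 higher and 7 lower, against 5.9% and 3.99%. For the mHAR123 label there were 2, both higher, against 14% of all genes (8.8% higher and 5.21% lower). In the libraries labelled cHAR123 the 7 lower genes were ETV5 (-0.44), SPRY4 (-0.48), SPRY1 (-0.34), SPRY2 (-0.30), IL17RD (-0.26), SPRED1 (-0.16) and FGFR1 (-0.10). Higher there were FGFR3 (0.49), FLRT3 (0.42) and FGFR2 (0.40). The genes in the libraries labelled mHAR123 were FGFR4 (0.50) and FGFR2 (0.20). Neural crest markers summed to 282 to 294 CPM under the cHAR123 label and 324 to 332 CPM under the mHAR123 label, and their part in these values was not tested.

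Set against HAR123-KO, both ortholog lines were higher in ETV4, ETV5, SPRY1, SPRY2, SPRED2 and FGF8. ETV5 was at 22.7, 19.4 and 19.1 CPM under the cHAR123 label and 24.5, 22.5 and 23.5 CPM under the mHAR123 label. In the libraries labelled cHAR123, 8 of 25 tested FGF genes passed, 8 higher and 0 lower than in HAR123-KO, against 7.61% of all genes (3.7% higher and 3.91% lower): ETV5 (1.86), FGF7 (2.0), ETV4 (1.63), FGF8 (1.62), SPRY2 (1.22), SPRY1 (1.16), SPRED2 (1.15) and FGF12 (1.02). Without the fold limit 19 of 25 lay under the adjusted p threshold, against 39% of all genes. FGF7 rested on 13, 10 and 14 counts against 3, 4 and 2 and passed the filter on low counts only through the libraries where it was high, so its call is no support for the count. It was lost with DESeq2 (adjusted p = 0.0113). FGF8, with 14, 9 and 18 counts in HAR123-KO, also passed that filter only through the libraries labelled cHAR123, and the same limit holds for its call. FGF12 fell under 2-fold without replicate 3 of the libraries labelled cHAR123 (0.996) or HAR123-KO replicate 3 (0.994). In the libraries labelled mHAR123, 8 of 23 passed, 6 higher and 2 lower, against 7.33% of all genes (3.55% higher and 3.78% lower). Without the fold limit 19 of 23 lay under the adjusted p threshold, against 36.5% of all genes. FGF8 (2.44), ETV5 (2.09), ETV4 (1.85), SPRY2 (1.56), SPRY1 (1.47) and SPRED2 (1.18) were higher. FLRT3 (-1.12) and FGF17 (-1.42) were lower, and FGF17 lost its call under 6 of the alternatives tried. FGF17 again passed the filter on low counts only through the HAR123-KO libraries, so its call is no support for the count. FGF8 passed it only through the libraries labelled mHAR123, and the same limit holds for its call. These comparisons share the HAR123-KO libraries with those above.

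Between the ortholog lines, 1 of 24 FGF genes passed, against 0.261% of all genes. FGF18 had 19, 21 and 16 counts under the cHAR123 label and 7, 7 and 6 under the mHAR123 label (-1.49 ± 0.38 SE, adjusted p = 0.00718). It passed the filter on low counts only through the libraries labelled cHAR123, so its call is no support for the count. DESeq2 gave no adjusted p for it, and the edgeR call was lost whenever any 1 of the 6 libraries was left out, with log2 fold changes of -1.40 to -1.55 and adjusted p up to 0.056. Another 6 genes lay under the adjusted p threshold with less than 2-fold, among them FGF8 (0.82), SPRY2 (0.34), SPRY1 (0.31) and FGFR3 (-0.50), so that 7 of 24 lay under it in all, against 4.2% of all genes. Because the names of these libraries are in doubt, the species to which either direction belongs is in doubt as well.

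**Figure D4:**
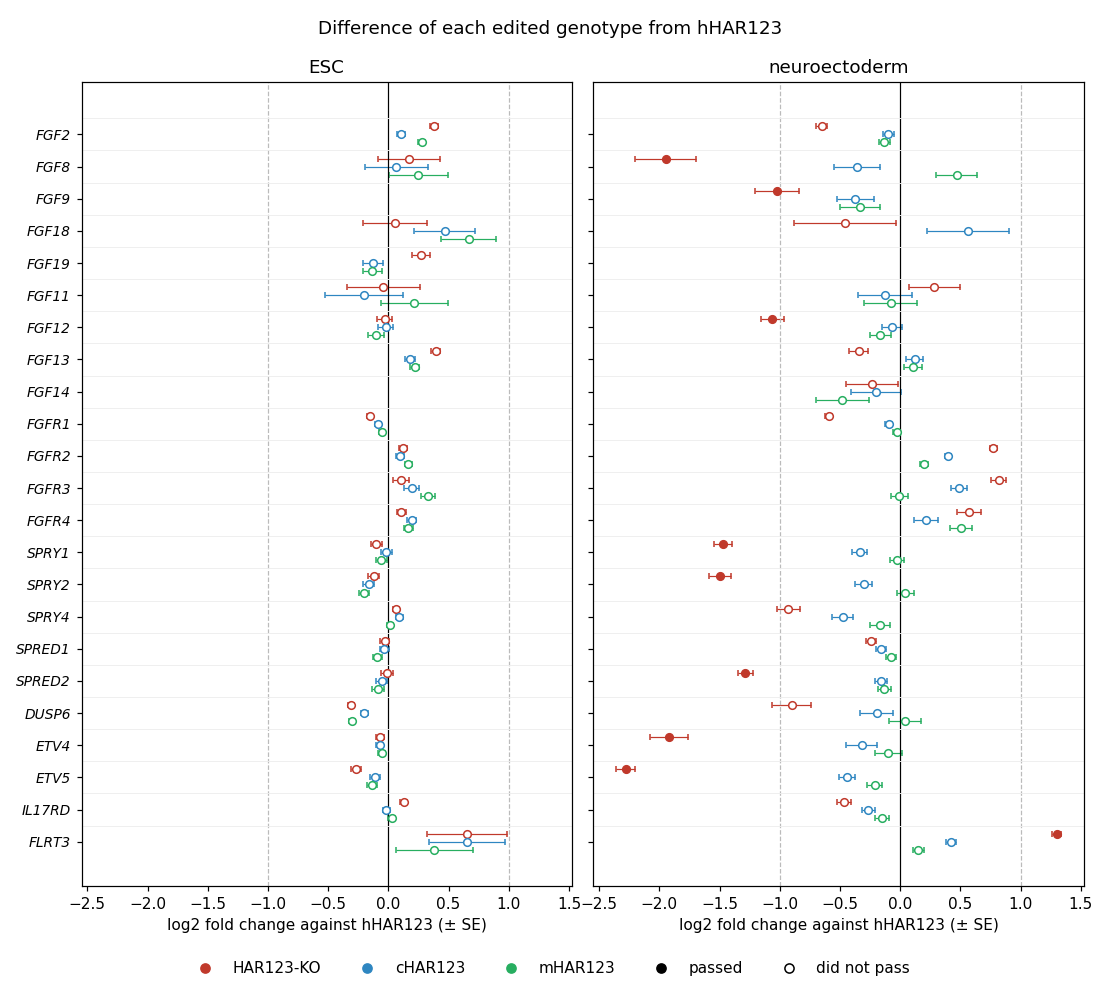
Log2 fold change against hHAR123 (x axis, ± SE of the fit) of 23 FGF genes in ESCs (left) and neuroectoderm (right) for HAR123-KO, cHAR123 and mHAR123 as labelled, 3 libraries per group. Filled points passed the test and dashed lines mark 2-fold. The filled points drawn are those of HAR123-KO neuroectoderm, from -2.28 for ETV5 to 1.30 for FLRT3.

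In ESCs no FGF gene passed against hHAR123 in any edited genotype, by edgeR or by DESeq2. The genes with an unadjusted p under 0.05 were 15 of 26 in HAR123-KO, 14 of 26 in cHAR123 and 13 of 26 in mHAR123, against 29.7%, 36.9% and 38.5% of all genes. The share of all genes that passed both limits was 1.18%, 0.85% and 1.23%. Without the fold limit 8, 6 and 8 FGF genes lay under the adjusted p threshold, against 12.4%, 16.3% and 19.2% of all genes. They were 5 higher and 3 lower in HAR123-KO (7.06% and 5.29% of all genes), 3 and 3 in cHAR123 (7.72% and 8.6%), and 5 and 3 in mHAR123 (9.02% and 10.2%). DUSP6, lower, and FGF13, higher, were under it in all 3 edited genotypes. FGF13 differed by 0.39 in HAR123-KO, 0.18 in cHAR123 and 0.22 in mHAR123. DUSP6 was at 220.5, 222 and 222 CPM in hHAR123, 179, 184 and 179.6 CPM in HAR123-KO (-0.31), 197, 195 and 199 CPM in cHAR123 (-0.20) and 185, 185 and 183 CPM in mHAR123 (-0.30). The edited ESCs were thus all lower than the unedited ones in DUSP6, and the comparisons share the hHAR123 libraries. FGF2 was at 89.4 to 95.3 CPM in hHAR123, 119 to 126 CPM in HAR123-KO (0.38), 99.6 to 105 CPM in cHAR123 (0.10) and 112 to 118 CPM in mHAR123 (0.28). The FGF2 difference in cHAR123 was not under the adjusted p threshold. In HAR123-KO the other genes were FGF13 (0.39), FGF19 (0.27), IL17RD (0.13) and FGFR2 (0.12), higher, and ETV5 (-0.27) and FGFR1 (-0.16), lower.

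Whether the effect of the deletion depended on stage was tested directly, as the log2 fold change of HAR123-KO against hHAR123 in neuroectoderm minus that in ESCs. Of the 29 FGF genes tested, 10 passed, each with a negative value, against 7.87% of all genes (4.03% negative). The median was -0.74 over the tested FGF genes. Feedback genes were 5 of the 10: ETV5 (-2.02 ± 0.09 SE, adjusted p = 4.24e-25), ETV4 (-1.86), SPRY1 (-1.38), SPRY2 (-1.38) and SPRED2 (-1.28). Ligands were 4: FGF9 (-2.21), FGF8 (-2.12), FGF2 (-1.04) and FGF4 (-5.58). The remaining gene was the homologous factor FGF12 (-1.04). FGF4 was too low to test in neuroectoderm and FGF9 in ESCs, so each entered through the stage where it was high and neither supports the shared direction of the other 8. FGF2 differed in opposite directions, with 0.38 in ESCs and -0.65 in neuroectoderm. The FGF4 value is no bound, since FGF4 had 0, 0 and 0 counts in HAR123-KO neuroectoderm, 2, 6 and 2 in hHAR123 neuroectoderm, 31, 29 and 41 in HAR123-KO ESCs and 18, 33 and 20 in hHAR123 ESCs. For FLRT3 the difference was 0.63 ± 0.31 SE, adjusted p = 0.0964, so its rise in neuroectoderm was not shown to differ from the ESC value of 0.65, which rested on 9, 26 and 23 against 13, 14 and 15 counts.

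The differentiation of the edited genotypes was tested in the same way. In HAR123-KO 25 of 29 FGF genes passed, 6 higher and 19 lower (41.1% of all genes). In cHAR123 17 of 27 passed, 5 higher and 12 lower (42.7%), and in mHAR123 20 of 27, 5 higher and 15 lower (41.9%). Some of these genes entered the filter on low counts only through the stage where they were high. In HAR123-KO, FGF1, FGF4, FGF16, FGF19 and FGF21 were too low to test against hHAR123 in neuroectoderm, and FGF9, FGF14 and FGF17 in ESCs. FGF18 (7, 15 and 5 counts in neuroectoderm) and FGF22 (20, 8 and 16) also entered only through the HAR123-KO ESCs. FLRT3, with 9, 26 and 23 counts in ESCs, entered only through the HAR123-KO neuroectoderm. Their calls are no support for these counts, and the same limit holds in cHAR123 and mHAR123, as for FGF4 and FGF9. FLRT3 rose by 7.62, 6.78 and 6.77, and DUSP6 differed by -6.45, -5.83 and -5.50 in the same order. FGF8 rose in hHAR123 (1.21) and mHAR123 (1.48), whereas its values were 0.83 in cHAR123 and -0.89 in HAR123-KO. ETV5 fell in all 3, with -3.16 in HAR123-KO, -1.45 in cHAR123 and -1.20 in mHAR123. The neuroectoderm names of cHAR123 and mHAR123 carry the doubt given above.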

How the data were processed

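RNA libraries (ribosomal RNA depletion, directional, paired-end on NovaSeq) were made by the authors from 24 samples. The deposited values are raw counts: the authors aligned reads with STAR 2.5.2b to GRCh38 and counted exon reads per Ensembl 106 gene with featureCounts of Subread. Strand and multimapping settings are not given in the sources used here, so overlapping genes on opposite strands are uncertain. ANK2 was left out because its row was split over 3 lines, so 61551 of 61552 genes were used. Groups came from the sample titles.

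Each pair of groups was fitted alone with edgeR 4.0.16 in R 4.3.3 (filterByExpr, TMM scaling, quasi-likelihood F test), with p-values adjusted by Benjamini-Hochberg over all genes tested. A gene passed at adjusted p under 0.01 and over 2-fold. The SE was taken from the F statistic, as the size of the log2 fold change over root F. The stage dependence was an interaction term over 12 libraries. CPM are counts scaled to the library total, and TPM also divide by exon length. Counts at or under 3 were taken as the floor. The fits were tested on simulated data. Alternatives were DESeq2 1.42.0, DESeq2 size factors, no filter, 1 fit of all libraries, a replicate block, both thresholds loosened and each library left out. Named genes were those that passed against hHAR123, the 8 largest changes over unedited differentiation, and 17 genes of known role. FGF1, FGF7, FGF11, FGF13, FGF14, FGF18, FGF21 and FGF22 lie outside this rule and were named after their values were seen. The FGF genes, the lists of related genes and the markers were chosen with earlier results of these data known. Promoter windows came from RefSeq on GRCh38.p14.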

Additional observations from a re-analysis of the deposited data

Results flagged for a closer look

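The effect of the deletion differed between ESCs and neuroectoderm, by the interaction term of the edgeR fit, for 10 FGF genes. The difference (log2, neuroectoderm minus ESC) was -5.58 for FGF4, -2.21 for FGF9, -2.12 for FGF8, -2.02 for ETV5, -1.86 for ETV4, -1.38 for SPRY1, -1.38 for SPRY2, -1.28 for SPRED2, -1.04 for FGF2 and -1.04 for FGF12. Each had 3 libraries in each of the 4 groups. FGF4 and FGF9 rested on few counts, and each was too low to test in 1 of the stages: FGF9 had 6, 2 and 6 counts in hHAR123 ESCs and 9, 13 and 6 in HAR123-KO ESCs. The FGF4 call was lost without hHAR123 neuroectoderm replicate 2 (-4.91), and the FGF12 call without HAR123-KO ESC replicate 2 (-0.99) or hHAR123 neuroectoderm replicate 2 (-0.99).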

How the results depend on the processing

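The 14 counts of FGF genes that passed were recomputed under 7 other settings and with each library left out. For genes that had passed, 114 results in all, no value changed sign under these settings. Of their 1541 values, 30 lost the call, spread over 13 results. FGFR1 and FGFR3, which had not passed over differentiation, change sign between plain CPM and the fitted scale. Dropping the fold limit moved 10 of the counts: from 0 to 8 (HAR123-KO ESC), 6 (cHAR123 ESC), 8 (mHAR123 ESC), 10 (cHAR123 neuroectoderm) and 2 (mHAR123 neuroectoderm) against hHAR123, from 10 to 20 for HAR123-KO neuroectoderm against hHAR123, from 8 to 19 for each ortholog against HAR123-KO, from 1 to 7 between the orthologs, and from 10 to 19 for the stage dependence. By construction these counts include genes under 2-fold. An adjusted p under 0.05 called 1 gene, FGF21, in mHAR123 ESCs. The single call between the orthologs became 0 with DESeq2, which gave FGF18 no adjusted p, and 0 with the replicate block, and ranged from 0 to 0 with a library left out. The cause was not tested. In HAR123-KO neuroectoderm DESeq2 called 9 genes, leaving out FGF17 (adjusted p = 0.013), and a fit of all 24 libraries called 11. With 1 library left out, the counts ranged from 9 to 10 for HAR123-KO against hHAR123 neuroectoderm, from 7 to 9 for either ortholog against HAR123-KO, from 8 to 12 for the stage dependence, from 15 to 18, 24 to 26, 17 to 21 and 20 to 21 for differentiation in hHAR123, HAR123-KO, cHAR123 and mHAR123, and stayed at 0 in the other comparisons with hHAR123. Same-numbered libraries did not deviate together, with correlations from -0.054 to 0.057, so the numbers were not taken as pairs. Fitted all the same, the replicate block left 13 of the 14 counts within 1.5 times, changing only the count between the orthologs. Depth limits the ligands: 11 of the 17 fell under the filter on low counts between HAR123-KO and hHAR123 neuroectoderm, so differences in them were not tested there. They include FGF1 (2, 0 and 0 counts against 8, 4 and 5) and FGF4 (2, 6 and 2 against 0, 0 and 0).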
